A study of Mus musculus with 11 samples.

Results

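ISL1 occupancy of gene promoters was measured by CUT&Tag in endocrine cells of the mouse pancreas at postnatal day 9 (P9) and in the embryo at E14.5 (days after conception). Occupancy was listed as whole numbers in promoter windows, and all 22332 listed windows were used, each assigned to its own gene. The ISL1 data came from 3 of the 11 libraries of the series, 1 library at P9 and 2 libraries at E14.5 that were pooled into a single column. Both stages were Control mice of genotype Isl1loxP/+;Neurod1-cre on a C57BL/6 background, so 1 Isl1 allele was floxed at both stages and no ISL1 library had 2 unfloxed alleles. Neurod1-Cre, a transgene active in cells that have switched on Neurod1, also turned on the Ai14 tdTomato reporter, by which the cells were sorted. Littermates of both sexes were used. At P9 each sample was a pool of 3 to 4 pancreases with about 20000 sorted cells, and how many animals went into each E14.5 library was not given in the sources used here. The series also profiled the histone marks H3K27ac and H3K27me3 at P9, with 2 libraries per mark of Isl1CKO mice (both Isl1 alleles floxed, with Neurod1-cre) and 2 of Control mice. The regions listed for each mark over these 4 libraries served to describe the promoters. With 1 library at P9 and 1 pooled column at E14.5 there was no spread between replicates at either stage, so the stages were described and not tested.

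ISL1 is a transcription factor with a homeodomain, which binds DNA at sequences with a TAAT core, and LIM domains, through which it binds the adaptor LDB1 and other proteins. It is required for the formation and maturation of pancreatic endocrine cells, and in mouse beta cells the genes it is known to act on include Mafa, Slc2a2 and Pdx1. Endocrine progenitors are still arising in number in the pancreas at mid gestation, while shortly after birth the islets hold hormone cells that are maturing. In CUT&Tag an antibody brings a transposase to the bound protein, and the tagged DNA around it is sequenced. The windows cover promoters and leave out distal enhancers, where many sites of islet factors lie.

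The sequences below are the 250 bases before the transcription start of 6 genes, shown because the counts at these promoters recur in the results: the Isl1 gene itself, 3 islet or endocrine progenitor factors, and the 2 promoters with the highest P9 count. They are RefSeq sequences on GRCm38.p6, 5′ to 3′ on the strand of the gene, and the coordinates beside them are of that build, whereas the windows described later are on GRCm39. Capitals mark TAAT, or ATTA where the match lies on the opposite strand.
Isl1 (chr13:116309689-116309938, minus strand): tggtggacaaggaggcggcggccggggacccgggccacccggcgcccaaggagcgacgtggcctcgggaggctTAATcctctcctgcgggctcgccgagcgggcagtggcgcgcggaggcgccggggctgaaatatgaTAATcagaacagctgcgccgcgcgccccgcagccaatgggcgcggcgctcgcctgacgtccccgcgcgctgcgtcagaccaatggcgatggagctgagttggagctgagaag
Nkx2-2 (chr2:147186403-147186652, minus strand): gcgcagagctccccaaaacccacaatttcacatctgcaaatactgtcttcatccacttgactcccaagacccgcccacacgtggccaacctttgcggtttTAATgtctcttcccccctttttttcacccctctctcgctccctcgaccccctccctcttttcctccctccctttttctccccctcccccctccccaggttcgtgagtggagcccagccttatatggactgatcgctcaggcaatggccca
Neurod1 (chr2:79456637-79456886, minus strand): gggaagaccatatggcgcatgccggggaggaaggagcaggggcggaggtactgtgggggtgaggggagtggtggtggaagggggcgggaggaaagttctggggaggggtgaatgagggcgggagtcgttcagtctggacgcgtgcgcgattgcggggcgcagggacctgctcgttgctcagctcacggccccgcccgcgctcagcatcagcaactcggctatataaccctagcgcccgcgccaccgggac
Fev (chr1:74885409-74885658, minus strand): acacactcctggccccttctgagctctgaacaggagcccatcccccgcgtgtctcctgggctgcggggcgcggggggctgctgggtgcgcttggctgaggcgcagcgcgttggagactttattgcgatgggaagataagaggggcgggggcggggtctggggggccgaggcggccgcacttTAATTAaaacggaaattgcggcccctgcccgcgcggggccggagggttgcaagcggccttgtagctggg
Osmr (chr15:6874314-6874563, minus strand): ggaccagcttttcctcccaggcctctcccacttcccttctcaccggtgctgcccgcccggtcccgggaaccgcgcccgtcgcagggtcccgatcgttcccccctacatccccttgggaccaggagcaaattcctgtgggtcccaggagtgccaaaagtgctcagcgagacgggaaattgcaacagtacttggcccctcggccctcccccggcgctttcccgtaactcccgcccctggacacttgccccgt
Nodal (chr10:61417722-61417971, plus strand): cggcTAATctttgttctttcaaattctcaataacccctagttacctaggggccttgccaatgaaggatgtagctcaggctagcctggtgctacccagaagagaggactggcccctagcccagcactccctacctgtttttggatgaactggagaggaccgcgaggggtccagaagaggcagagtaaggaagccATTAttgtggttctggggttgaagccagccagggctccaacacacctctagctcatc
The Isl1, Fev and Nodal stretches each held 2 matches, and those of Fev overlap in a palindrome. The Nkx2-2 stretch held 1 match, and those of Neurod1 and Osmr held 0. None of the 6 stretches held the longer motif CTAATG on either strand.

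ISL1 counts were sparse at both stages, and far sparser at P9. The P9 column summed to 2255 and the E14.5 column to 16668, 7.39 times as much, and what is counted is not stated in the file. In a bulk count, fewer occupied cells and less occupancy per cell cannot be told apart. The highest single window had a count of 8 at P9, against 133 at E14.5. At P9, 1978 windows (8.86%, exact 95% binomial interval 8.49 to 9.24) had a count of at least 1, against 8426 windows (37.7%) at E14.5. To set the stages at equal depth, E14.5 was thinned to the P9 sum, which keeps 13.5% of its units and leaves an expected 1969 positive windows (8.82%). The closeness of these numbers follows largely from the thinning, since it sets the sums equal and most positive windows at P9 held a single count. Depth of sequencing was not matched, because only counts in promoter windows were at hand. All intervals given here, and the limits that a count of 0 allows, cover counting error only, not the spread between animals or libraries.

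Most of these promoters rested on a single count. At P9, 1771 of the positive windows (89.5%) had a count of exactly 1, and 51.4% of the positive windows did at E14.5. A count of at least 2 was reached by 207 windows at P9 (0.927%) and by 4097 windows (18.3%) at E14.5, or an expected 227 (1.02%) after thinning. A count of at least 4 was reached by 18 windows at P9, against an expected 6.81 at thinned E14.5. At a count of at least 7 there was no such excess, with 2 windows at P9 against an expected 2.40 at thinned E14.5. Windows did not overlap, 19583 of them were 6000 bases wide and the remaining 2749 were wider. The file named several genes for 10202 windows (45.7%), and each window is called by its listed gene.

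The promoters reached at the 2 stages overlapped in part. Windows positive at both stages numbered 1043 (4.67% of all windows), which is 52.7% of the P9 windows and 12.4% of the E14.5 windows. Over all windows, 37.7% were positive at E14.5 and 8.86% at P9. A further 935 windows were positive at P9 alone, 7383 at E14.5 alone and 12971 at neither. The share of windows with a P9 count was broadly higher at higher E14.5 counts, where windows were also wider on average. Mean width was 6191 bases at an E14.5 count of 0, 6652 at 3 and 8205 at 9 or more, and its part was not tested. At P9, 6.72% of the windows with no E14.5 count were positive (6.31 to 7.15), against 14.0% (11.9 to 16.3) of those with an E14.5 count of 3 and 24.1% (10.3 to 43.5) of the 29 windows with 9 or more. These shares stayed below what E14.5 itself would keep after thinning, 35.3% at a count of 3 and 81.6% at 9 or more. That expectation takes the E14.5 counts as they stand and leaves out their own counting error. Windows were grouped by these same counts, so a separate library of either stage could fall below it. The gap therefore does not compare the stages.

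**Figure D1:**
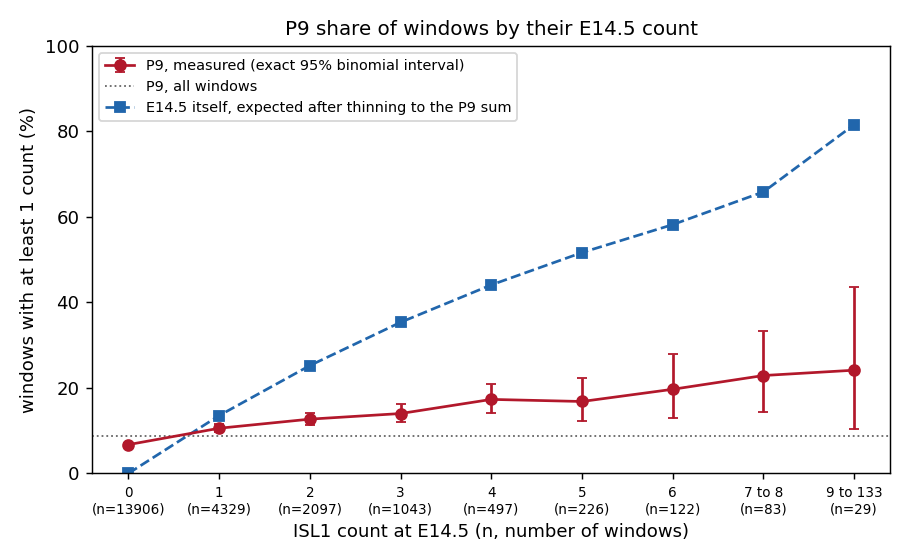
Share of windows with at least 1 ISL1 count (%, vertical axis) by the ISL1 count at E14.5 (horizontal axis, number of windows in brackets), with red points for P9 and their exact 95% binomial intervals, blue squares for E14.5 itself after thinning to the P9 sum, and a dotted line at the P9 share of all windows. The P9 share climbs from 6.72% at an E14.5 count of 0 to 24.1% at 9 or more. It lies below the blue line at every E14.5 count of 1 or more. That line comes from the counts by which windows were grouped, so the gap does not compare the stages.

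The highest P9 counts stood at promoters with little or no E14.5 count, which was also true of most windows. Osmr, a receptor subunit for the cytokine oncostatin M, had a count of 8 at P9 and 1 at E14.5 (chr15:6901451-6907450). Nodal, a TGF-beta family ligand that patterns the early embryo, had 7 at P9 and 1 at E14.5 (chr10:61250752-61256751). Mlph, which links Rab27 vesicles to myosin, had 6 at P9 and 0 at E14.5 (chr1:90839808-90845807). Ct47, a gene of the X chromosome, had 6 at P9 and 0 at E14.5, and Mtpap, the mitochondrial poly(A) polymerase, had 6 at P9 and 1 at E14.5. The exact Poisson interval of a count of 8 runs from 3.45 to 15.8 and that of a count of 6 from 2.2 to 13.1.

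The next windows by P9 count were mixed in their E14.5 count. E130018O15Rik, in a wide window of 12990 bases, had 5 at P9 and 10 at E14.5. Pcmtd2 and Gm36981 each had 5 at P9, against 1 at E14.5 for Pcmtd2 and 0 for Gm36981. Acta1, skeletal muscle actin, had 4 at both stages, and Lrrc26, an accessory subunit of large-conductance potassium channels, had 4 at P9 and 3 at E14.5. Gucy2c, the intestinal receptor for guanylin, had 4 at P9 and 0 at E14.5. Of the 18 windows with a P9 count of at least 4, 12 had an E14.5 count of 0 or 1, and 7 of these had 0. Low E14.5 counts were no more frequent there than over all 22332 windows, of which 13906 had 0 and 4329 had 1.

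The highest E14.5 counts were concentrated in 4 windows. Hinfp, a regulator of histone H4 genes, had 0 at P9 and 133 at E14.5 (chr9:44213969-44219968). Cyb5r3, cytochrome b5 reductase, had 0 at P9 and 66 at E14.5 (chr15:83053794-83059793). Bcar3, a signalling adaptor, had 2 at P9 and 46 at E14.5 (chr3:122084786-122090785), and Smdt1, a subunit of the mitochondrial calcium uniporter, had 0 at P9 and 33 at E14.5 (chr15:82220127-82226160). None of these 4 genes is known as an islet identity gene, and of their promoters only that of Hinfp was listed with H3K27ac at P9.

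A P9 count of 0 was taken to allow up to 3 counts, which equals 22.2 units on the E14.5 scale. The upper end of the exact Poisson interval is 3.69 counts, or 27.3 such units. Only the 4 windows just named exceeded either level at E14.5, so for every other promoter a 0 at P9 could not be told from the E14.5 count at this depth. Below them stood Phf10, a chromatin remodeller subunit, with 0 at P9 and 16 at E14.5, and Bbx, an HMG-box factor, with 0 and 15 at the same stages. Msh5, a meiotic recombination gene, had 0 at P9 and 14 at E14.5. Abcg4, a sterol transporter gene near the Hinfp window (chr9:44196913-44202912), had 0 at P9 and 13 at E14.5, and Brd2, a reader of acetylated histones, had 0 at P9 and 12 at E14.5. Fev, an ETS factor of endocrine progenitors and serotonergic neurons, had 2 at P9 and 14 at E14.5 (chr1:74921579-74927578). The homeobox gene Nkx1-1 had 1 at P9 and 12 at E14.5. Of the 29 windows with an E14.5 count of at least 9, 22 had a P9 count of 0. Positive at P9 were thus 24.1% of them (10.3 to 43.5), against 8.86% of all windows.

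On a fixed rule of size, at least 2-fold between stages on the count plus 1 with E14.5 scaled to the P9 sum and at least 4 deposited counts in the higher stage, 18 windows were higher at P9 (0.0806%) and 50 were higher at E14.5 (0.224%). The minimum of 4 was not scaled, and 4 counts at E14.5 scale to 0.541 at the P9 sum. Of the 50 windows, 46 had a P9 count of 0 that could not be told from their E14.5 count at this depth. The number higher at E14.5 rested on the settings, since it was 784 with a pseudocount of 0.5, 824 when scaled by the windows positive at both stages, and 5 with a 3-fold rule. The log2 ratio of P9 over scaled E14.5 on this scale was 2.99 for Osmr, 2.82 for Nodal and -4.25 for Hinfp.

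Promoters of islet transcription factors carried ISL1 counts more often than promoters in general at both stages. At P9, 13 of 27 were positive (48.1%, 28.7 to 68.1), against 25 of 27 (92.6%) at E14.5 and an expected 31.4% after thinning. The 27 promoters summed to 16 counts at P9 (exact Poisson interval 9.15 to 26.0) and to 81 at E14.5, which scales to 11 at the P9 sum. Positive at both stages were 11 of the 27. Only Mnx1 and St18 were positive at P9 alone, each with a count of 1.

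The counts within this group were spread over many factors. Foxa2, a pioneer factor of endoderm, Foxo1, a target of insulin signalling, and Neurod1, the bHLH factor of endocrine differentiation (chr2:79284096-79290129), each had 2 at P9 and 2 at E14.5. Nkx2-2, a homeodomain factor that keeps beta cell identity, had 1 at P9 and 7 at E14.5 (chr2:147033164-147039163). Nkx6-1, another beta cell homeodomain factor, had 1 at P9 and 5 at E14.5. Rfx3, a regulator of cilia and endocrine differentiation, had 1 at P9 and 3 at E14.5, and Nfatc1, a calcineurin-responsive factor, had 1 and 4 at the same stages. Factors with a high E14.5 count and none at P9 included Isl1 itself with 9 (chr13:116443226-116449225), Insm1, a zinc-finger factor of endocrine differentiation, with 7, and Pax6 with 6. The 9 units at Isl1 scale to 1.22 at the P9 sum, so its 0 at P9 lies within counting error, and the same holds for Insm1 and Pax6.

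**Figure D2:**
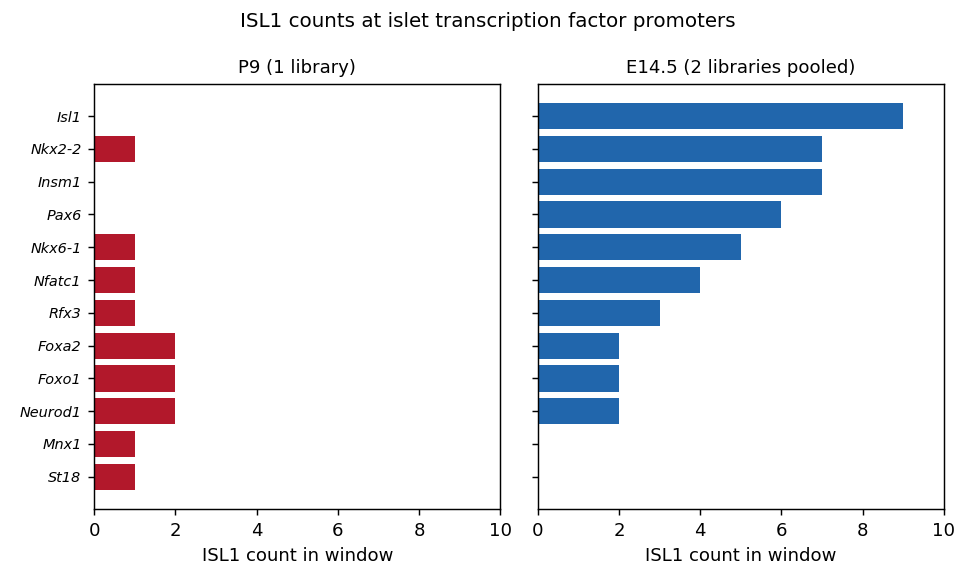
ISL1 count in the promoter window of each factor named in the paragraphs above on islet transcription factors, at P9 (1 library, left) and at E14.5 (2 libraries pooled, right). Counts are as deposited and not scaled to equal depth. Mafa, Pdx1 and Neurog3, described below, are not shown. At P9 none of these factors exceeds a count of 2, and Isl1, Insm1 and Pax6 have 0. At E14.5 Isl1 has the highest count of those shown, 9, and Mnx1 and St18 have 0.

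A set of individual islet genes, named whatever their counts, was led by transcription factors at E14.5. Ins1 and Ins2 (insulin), Gcg (glucagon), Iapp (islet amyloid polypeptide), Ucn3 (urocortin 3, a late beta cell maturation marker) and Glp1r (the GLP-1 receptor) had 0 at both stages. Sst (somatostatin) and Slc2a2 (the beta cell glucose transporter) had 0 at P9 and 1 at E14.5, and Ppy (pancreatic polypeptide) had 1 at P9 and 0 at E14.5. Among known targets and partners, Mafa, the factor of insulin gene expression and beta cell maturation, had 0 at P9 and 6 at E14.5, and Pdx1, a factor of pancreas formation and beta cells, had 0 and 4 at those stages. Neurog3, the factor that starts the endocrine programme, had 0 at P9 and 1 at E14.5.

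Cell identity lists had wide P9 intervals that overlapped each other and included their thinned shares, against 8.86% of all windows positive at P9. No P9 count in these lists exceeded 1, so a difference among them could not be told. Of 21 beta cell identity promoters, 2 were positive at P9 (9.52%, 1.18 to 30.4), both of them homeodomain factors, Nkx2-2 and Nkx6-1, against 13 (61.9%) at E14.5 and an expected 20.9% after thinning. Alpha cell genes were positive in 3 of 14 at P9 (21.4%, 4.66 to 50.8), among them Dpp10 and Pou3f4, and in 8 of 14 at E14.5, with 17.2% expected after thinning and Irx2 highest at 6. Delta cell genes were positive in 0 of 10 at P9, where the exact interval reaches 30.8%, and in 6 of 10 at E14.5, with 17.6% expected after thinning, where Hhex, the delta cell homeobox factor, had 4. Of 7 genes of pancreatic polypeptide and ghrelin cells, 3 were positive at P9 (42.9%, 9.90 to 81.6) and 4 at E14.5, with 17.2% expected after thinning. At a minimum count of 2 the P9 share of this list lay below the thinned one, by a difference of -6.43 percentage points. The 3 were Meis2 with 1 at P9 and 11 at E14.5, and Ghrl (ghrelin) and Ppy, each with 1 at P9 and 0 at E14.5.

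Most endocrine progenitor promoters had an E14.5 count and fewer had a P9 count, in columns of unequal depth. The shares of all windows were 37.7% at E14.5 and 8.86% at P9. At P9, 4 of 22 were positive (18.2%, 5.19 to 40.3), against 20 of 22 (90.9%) at E14.5 and an expected 31.5% after thinning. The P9 interval included both the thinned share and the P9 share of all windows. The 4 were Fev, Nkx2-2, Cck and Gadd45a. Insm1 with 7, Chga (chromogranin A) and Hes1, a Notch target, with 5 each, and Dll1, a Notch ligand, with 4 were the highest E14.5 counts among members at 0 at P9. Among 20 LIM-homeodomain genes and their cofactors, 4 were positive at P9 (20.0%, 5.73 to 43.7) and 13 (65.0%) at E14.5, with 20.0% expected after thinning. This P9 interval also included the P9 share of all windows. Lmx1b had 2 at P9 and 3 at E14.5, Lmx1a had 1 and 6 at those stages, and Ssbp3, a cofactor that works with LDB1, had 0 at P9 and 4 at E14.5. The adaptor gene Ldb1 had 0 at P9 and 1 at E14.5.

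For genes of the secretory apparatus the P9 intervals included the share of all windows. Prohormone processing enzymes and granins were positive in 1 of 15 at P9, Pcsk1n, an inhibitor of the prohormone convertase PC1/3, and in 10 of 15 at E14.5. Exocytosis genes were positive in 5 of 29 at P9 (17.2%, 5.85 to 35.8) and in 17 of 29 (58.6%) at E14.5, against 14.6% after thinning. Cadps2, a priming factor of dense-core granules, had 2 at P9 and 1 at E14.5, and Doc2b, a calcium sensor of exocytosis, had 2 at P9 and 0 at E14.5. Glucose sensing and beta cell metabolism genes were positive in 2 of 22 at P9, Txnip and Idh2, and in 12 of 22 at E14.5. Receptors that act on hormone secretion were positive in 2 of 24 at P9, the fatty acid receptor Ffar4 and the somatostatin receptor Sstr1, and in 14 of 24 at E14.5.

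Potassium channel promoters stood above the all-window share. Potassium channel genes were positive in 20 of 90 at P9 (22.2%, 14.1 to 32.2) and in 57 of 90 (63.3%) at E14.5, with 15.4% expected after thinning. The highest P9 counts were at genes of K2P leak channels, with 3 at P9 and 2 at E14.5 for Kcnk3 and 2 at both stages for Kcnk1 and Kcnk9. Kcnj11, the pore subunit of the ATP-sensitive channel that couples glucose to insulin release, had 0 at P9 and 3 at E14.5. Calcium and sodium channel genes were positive in 5 of 39 at P9 and in 19 of 39 at E14.5, and neurotransmitter receptor genes in 15 of 95 (15.8%, 9.12 to 24.7) at P9 and in 46 of 95 (48.4%) at E14.5.

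Developmental regulators, most of them best known from other tissues, also had high shares at both stages. Homeobox genes of the developmental list, in which the islet genes Nkx2-2 and Nkx6-1 also stand, were positive in 27 of 83 at P9 (32.5%, 22.6 to 43.7) and in 72 of 83 (86.7%) at E14.5, with 29.3% expected after thinning. Tlx2, a factor of enteric neurons, had 2 at P9 and 11 at E14.5, Gbx1 had 2 at both stages, and Pitx1, the hindlimb factor, had 1 at P9 and 5 at E14.5. En2, a midbrain and hindbrain factor, had 0 at P9 and 9 at E14.5. The order of the stages in this list turned with the setting: P9 minus thinned E14.5 was 3.18 percentage points, but -3.90 points at a minimum count of 2 and -13.3 points when E14.5 windows were matched to P9 by rank.

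Hox genes, which give cells their position along the body axis, were positive in 9 of 29 at P9 (31.0%, 15.3 to 50.8) and in 27 of 29 (93.1%) at E14.5, with 31.5% expected after thinning. Hoxa2 had 2 at P9 and 7 at E14.5, Hoxa5, Hoxa7 and Hoxd12 each had 2 at P9 and 4 at E14.5, and Hoxb6 had 0 at P9 and 8 at E14.5. Of the 29 Hox promoters, 0% carried H3K27ac and 62.1% carried H3K27me3 at P9. Sox, Pax, Tbx, Gata and Fox genes were positive in 24 of 89 at P9 (27%, 18.1 to 37.4) and in 64 of 89 (71.9%) at E14.5, against 21.3% after thinning. Foxb2, a neural forkhead gene, had 3 at P9 and 1 at E14.5, Pax9 and Sox7 each had 2 at P9 and 4 at E14.5, and Pax1, a factor of the vertebral column, had 0 at P9 and 8 at E14.5. Genes of bHLH factors were positive in 8 of 39 at P9 (20.5%, 9.30 to 36.5) and in 29 of 39 (74.4%) at E14.5, among them Neurod1, also in the islet list, and the proneural gene Neurog2 with 2 each at both stages and Hand1, a heart and trophoblast factor, with 1 at P9 and 8 at E14.5.

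Signalling genes of the Wnt, Fgf, Bmp, Notch and hedgehog pathways were positive in 21 of 81 at P9 (25.9%, 16.8 to 36.9) and in 56 of 81 (69.1%) at E14.5, with 18.5% expected after thinning. Hedgehog members led the P9 counts. The ligand genes Dhh and Ihh had 4 and 2 at P9, against 2 for Dhh and 5 for Ihh at E14.5, and the receptor gene Ptch1 had 1 at P9 and 6 at E14.5. Their windows were wide, with 10000 bases for Dhh, 8580 for Ihh and 11544 for Ptch1. Axon guidance genes had the opposite order of shares, with 9 of 69 positive at P9 (13%, 6.14 to 23.3), against 49 of 69 (71.0%) at E14.5 and 20.2% after thinning. Ephb1 and Sema5b each had 2 at P9 and 0 at E14.5, and Nrp2, a semaphorin co-receptor, and Sema6a had 0 at P9 and 7 at E14.5.

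Several groups of broadly expressed genes had a lower share at P9 than at thinned E14.5. Chromatin modifiers were positive in 9 of 120 at P9 (7.5%, 3.49 to 13.8), against 84 of 120 (70.0%) at E14.5 and 20.9% after thinning. Kdm2a, a histone demethylase, and Smarce1, a remodeller subunit, had 1 at P9 and 5 at E14.5, while the Polycomb genes Ring1 and Pcgf2 had 0 at P9 with 9 and 8 at E14.5, and Kmt2d, a histone methyltransferase of enhancers, had 0 at P9 and 8 at E14.5. Splicing factor genes were positive in 1 of 57 at P9 (1.75%, 0.0444 to 9.39), against 43 of 57 (75.4%) at E14.5 and 18.5% after thinning. The 1 was Sf3b2 with a count of 1 at both stages, and Hnrnpa2b1 had 0 at P9 and 8 at E14.5.

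Kinase genes of the Map, Camk and Prk families were positive in 6 of 85 at P9 (7.06%, 2.63 to 14.7), against 56 of 85 (65.9%) at E14.5 and 17.8% after thinning. Mapk13, a stress kinase, had 0 at P9 and 12 at E14.5. Mitochondrial ribosomal protein genes were positive in 2 of 57 at P9 (3.51%, 0.428 to 12.1), against 33 of 57 (57.9%) at E14.5 and 12.8% after thinning. Genes of oxidative phosphorylation were positive in 3 of 72 at P9 (4.17%, 0.868 to 11.7), against 37 of 72 (51.4%) at E14.5 and 12.6% after thinning. Numbered Zfp genes, most of which encode zinc-finger factors, were positive in 25 of 344 at P9 (7.27%, 4.76 to 10.5), against 170 of 344 (49.4%) at E14.5 and 10.8% after thinning. In these 6 lists the P9 interval lay below the thinned share but included the 8.86% of all windows at P9, so their P9 shares were near the background.

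Proteasome subunit genes, unlike these lists, had a P9 interval above the 8.86% of all windows. They were positive in 8 of 32 at P9 (25%, 11.5 to 43.4), against 17 of 32 (53.1%) at E14.5 and 12.1% after thinning. The P9 interval included this thinned share. It also overlapped the P9 intervals of chromatin modifiers, kinases, mitochondrial ribosomal proteins and oxidative phosphorylation. Psmb8, an immunoproteasome subunit, had 2 at P9 and 6 at E14.5, and Psmd1, a subunit of the regulatory particle, had 2 at both stages. Cytosolic ribosomal protein genes were positive in 6 of 50 at P9 (12.0%, 4.53 to 24.3) and in 34 of 50 (68.0%) at E14.5. Cell cycle and replication genes were positive in 4 of 59 at P9 and in 36 of 59 at E14.5, with Cdkn2a and Cdk6 at 2 at P9, against 3 for Cdkn2a and 2 for Cdk6 at E14.5. Ccnd2, the cyclin D2 gene, had 0 at P9 and 8 at E14.5. Histone genes were positive in 1 of 35 at P9 and in 15 of 35 at E14.5, where H4c8 had 8.

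Genes of tissue-restricted receptor and keratin families, used mainly in sensory organs and epithelia, had a higher share at P9 than at thinned E14.5. Olfactory, vomeronasal and taste receptor genes were positive in 61 of 1542 at P9 (3.96%, 3.04 to 5.05), against 77 of 1542 (4.99%) at E14.5 and an expected 0.736% after thinning. Keratin and skin genes were positive in 8 of 131 at P9 (6.11%, 2.67 to 11.7), against 18 of 131 (13.7%) at E14.5 and 2.13% after thinning. In both families the P9 share lay below the all-window share and its interval above the thinned share. Of the receptor promoters, 0.130% carried H3K27ac and 1.95% carried H3K27me3 at P9. Nearly all of these receptor promoters thus carried neither mark at P9.

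Over all 50 lists, 34 had a P9 share above that of all windows, 43 had a thinned E14.5 share above it and 31 had both. The P9 share was higher than the thinned E14.5 share in 22 lists. The P9 interval excluded the thinned share in 8 lists, 2 of them with P9 higher and 6 with P9 lower, as named above. These 8 kept their direction under every alternative tried, but not every alternative could have turned it. No P9 count in the 6 lower lists exceeded 1, so at a minimum count of 2 their difference could only be negative. The sum over a gene's windows repeated the main values. In 20 lists the sign turned under at least 1 alternative, among them Sox, Pax, Tbx, Gata and Fox genes (-3.37 points when matched by rank), Wnt to hedgehog genes (-0.08 at a minimum count of 2), Hox genes (7.65 at a minimum count of 2) and cell cycle genes (3.76 at a minimum count of 2). The interval takes no account of the counting error of E14.5. Lists share some genes, and their genes are not replicates of a stage.

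**Figure D3:**
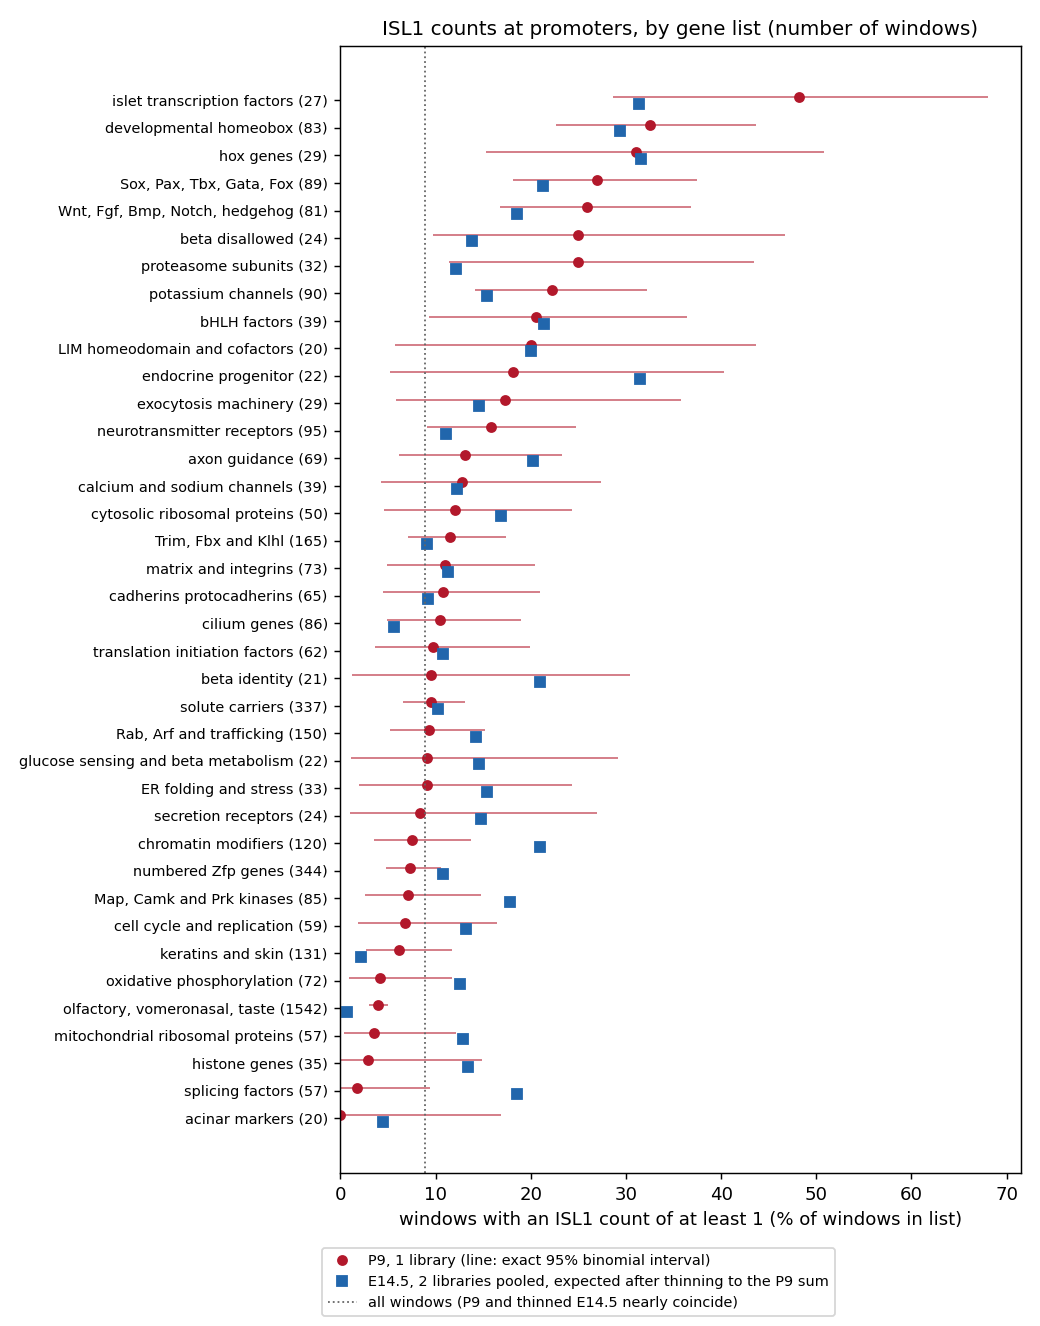
Share of the windows of each gene list with an ISL1 count of at least 1 (%, horizontal axis), for the lists of 20 or more windows, ordered by their P9 share, with red points for P9 (lines are exact 95% binomial intervals), blue squares for E14.5 thinned to the P9 sum, and a dotted line at the P9 share of all windows. Islet transcription factors stand highest at P9 with 48.1%, and splicing factors (1.75%) and chromatin modifiers (7.5%) lie left of their thinned E14.5 shares of 18.5% and 20.9%.

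The label of the sorted cells was checked by the active promoter mark at P9, in the histone libraries and not in the ISL1 library itself. The list of that mark covers Control and Isl1CKO cells together. H3K27ac was listed at 71.4% of beta identity promoters and at 66.7% of islet transcription factor promoters, against 38.6% of all windows. H3K27me3 was listed at 42.9% and 37.0% of these promoters, in the same order, against 13.8% of all windows. Of the hormone genes named above, Ins1, Ppy and Ghrl were listed with promoter H3K27ac, and Ins2, Iapp, Gcg and Sst were not. H3K27ac was listed at 5.00% of acinar, 9.09% of endothelial, 8.33% of mesenchymal, 10.0% of immune and 12.5% of glial promoters. Its share was above that of all windows at ductal (46.7%) and neuronal (58.8%) promoters. Among other endocrine identity lists it was 57.1% for alpha, 50.0% for delta and 71.4% for pancreatic polypeptide and ghrelin cells. The mark thus did not set alpha and delta promoters apart from neuronal ones. Histone marks at E14.5 were not analysed here, so the label of those cells was not checked in this way. ISL1 counts at markers of other cells varied by cell type, against 8.86% of all windows at P9 and 37.7% at E14.5. Acinar markers were positive in 0 of 20 at P9 and 4 of 20 at E14.5, immune markers in 0 of 10 at P9 and 1 of 10 at E14.5, and endothelial markers in 3 of 11 at P9, led by Flt1 with 3, and in 4 of 11 at E14.5. Neuronal markers were positive in 2 of 17 at P9 and in 15 of 17 (88.2%) at E14.5, with Nefm, a neurofilament gene, at 0 at P9 and 5 at E14.5. Ductal markers were positive in 3 of 15 at P9 and 10 of 15 at E14.5, mesenchymal markers in 2 of 12 at P9 and 5 of 12 at E14.5, and glial markers in 2 of 8 at P9 and 3 of 8 at E14.5. ISL1 itself acts in neurons and mesenchyme as well as in endocrine cells, and the part of such cells in the counts was not tested.

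Promoters grouped by the stages at which they were positive differed in the histone marks listed for them at P9. The mark lists cover Control and Isl1CKO cells together, and the choice of windows did not use them. H3K27ac marks active promoters and H3K27me3, placed by Polycomb, marks silenced ones. Over all windows 38.6% carried H3K27ac and 13.8% carried H3K27me3 at P9. Of windows positive at P9 alone, 33.9% (30.9 to 37.0) carried H3K27ac and 19.3% (16.8 to 21.9) carried H3K27me3. Of windows positive at E14.5 alone, 63.5% (62.4 to 64.6) carried H3K27ac and 18.5% (17.6 to 19.4) carried H3K27me3. Windows positive at both stages carried H3K27ac in 61.3% (58.2 to 64.2) and H3K27me3 in 35.1% (32.2 to 38.1), and windows positive at neither carried them in 22.9% and 9.09%. Because the columns were of unequal depth, P9 alone and E14.5 alone were not selected alike. At a count of 1, whatever the count at the other stage, H3K27ac stood at 48.2% of P9 and 58.4% of E14.5 windows. H3K27me3 stood at 25.8% and 20.1% of them.

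With a rising P9 count the share of Polycomb-marked promoters grew, from 12.5% at a count of 0 to 25.8% at 1, 41.5% (34.0 to 49.3) at 2 and 50.0% (32.9 to 67.1) of the 36 windows at 3 or more. By E14.5 count it was 9.77% at 0 and between 20.1% and 22.2% from a count of 1 upwards, while the H3K27ac share was 23.6% at a count of 0, 58.4% at 1 and 70.8% at 3. By P9 count the H3K27ac share was 37.6% at 0, 48.2% at 1, 49.1% at 2 and 50.0% at 3 or more. Among the high P9 promoters, Nodal and Lrrc26 were listed with H3K27me3 alone, and Mtpap, Pcmtd2 and Gm36981 with H3K27ac alone. Osmr and Mlph carried both marks, and Ct47 and Gucy2c carried neither.

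Grouped by mark, ISL1 positive shares ran in a different order at the 2 stages. Promoters with H3K27me3 alone were positive in 17.0% at P9 (15.4 to 18.8), against 11.3% at thinned E14.5. Promoters with both marks were positive in 18.7% (16.5 to 21.1) at P9 and 16.8% at thinned E14.5. Promoters with H3K27ac alone were positive in 9.95% (9.28 to 10.7) at P9 and 14.7% at thinned E14.5, and those with neither mark in 5.85% (5.43 to 6.29) at P9 and 3.88% at thinned E14.5. The P9 share thus exceeded the thinned share by 5.77 percentage points at promoters with H3K27me3 alone, and the difference was -4.77 points at promoters with H3K27ac alone. With marks taken from regions of at least 10 counts in 1 Control library alone, these differences were 5.31 to 5.58 and -4.86 to -4.85 points.

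**Figure D4:**
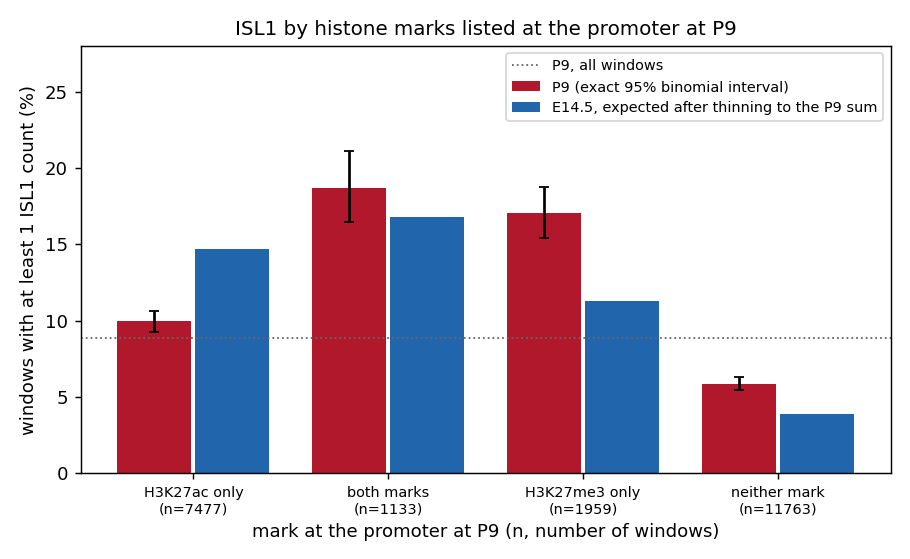
Share of windows with at least 1 ISL1 count (%, vertical axis) by the histone marks listed at the promoter at P9 (horizontal axis, number of windows in brackets), with red bars for P9 (exact 95% binomial intervals), blue bars for E14.5 thinned to the P9 sum, and a dotted line at the P9 share of all windows. Promoters with H3K27me3 only reach 17.0% at P9 and 11.3% at thinned E14.5, and those with H3K27ac only reach 9.95% and 14.7%.

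Promoter sequence also differed between the classes. In the 250 bases before the start, TAAT on either strand stood in 58.3% of all 27025 RefSeq promoters and CTAATG on either strand in 7.43%, where every CTAATG also holds a TAAT. A RefSeq promoter was found for 13921 windows. Among them, TAAT stood in 50.0% of promoters positive at P9 alone, 39.4% of those positive at E14.5 alone, 37.9% of those positive at both and 59.6% of those positive at neither. CTAATG stood in 7.79% of promoters positive at P9 alone, 4.38% at E14.5 alone, 3.02% at both and 7.55% at neither. Base composition moved with these shares: the median GC content was 57.0% at P9 alone, 61.7% at E14.5 alone, 62.3% at both and 52.7% at neither, and its part in them was not tested. The classes were cut from columns of unequal depth, so P9 alone and E14.5 alone were not selected alike. Among all matched promoters positive at P9, whatever their E14.5 count, TAAT stood in 43.1% and CTAATG in 5.07%. Among all those positive at E14.5, TAAT stood in 39.2% and CTAATG in 4.22%. In both motifs the stages were thus closer than the classes positive at P9 alone and at E14.5 alone. Over all matched windows TAAT stood in 50.0% and CTAATG in 6.05%. These shares describe letters in 250 bases and not the whole windows.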

How the data were processed

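CUT&Tag libraries of sorted pancreatic endocrine cells were taken by their labels, 1 ISL1 library at P9 and 2 at E14.5. Per the submitters' processing notes, the tools included edgeR 4.0.16, ChIPseeker 1.38.0, Bowtie2 2.3.5.1, MACS2 2.2.6 and Picard 2.27.4, with the build GRCm39. The authors deposited whole-number counts per promoter window and stage for ISL1, with the 2 E14.5 libraries pooled, and raw counts per region and library for the histone marks; the file headers do not say what the ISL1 counts hold. The number of sample columns left unused was 0. Listed and RefSeq chromosomes matched for 18010 of 18014 symbols.

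A window was positive with a count of at least 1. E14.5 was thinned to the P9 sum by the hypergeometric expectation, tested on simulated data. A window carried a mark where its gene had a promoter region in the list for that mark, which covers Control and Isl1CKO libraries together. Intervals are exact (Clopper-Pearson or Poisson) at 95%. Python 3.11.15, pandas 2.3.3, numpy 2.4.6 and scipy 1.17.1 were used. Named windows are the 10 highest at each stage, the 8 with the largest ratio each way, fixed islet genes, and up to 3 members per list and stage with the highest counts; other members were named after their values were seen, as examples or to complete a short count. Some members that these rules name are not reported here. The members and the 50 lists were chosen with earlier results of these data known. Alternatives changed the minimum count, the scaling, the window width, the highest windows, the pseudocount and the join to histone regions.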

Additional observations from a re-analysis of the deposited data

How the results depend on the processing

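No paired analysis was possible because the E14.5 libraries stand in 1 pooled column, P9 has 1 library and no result comes from a test. For the same reason no ISL1 replicate could be left out. All windows were annotated as within 1 kb of a start, with 1 window per gene ID, so those alternatives and the sum over a gene's windows gave the same values. With a minimum count of 2 or 3, the share of positive windows was 0.927% or 0.161% at P9 and 18.3% or 8.96% at E14.5, and the share of P9 windows also positive at E14.5 was 47.3% at a minimum of 2. With windows of 6000 bases only, chosen after seeing the data, the thinned E14.5 share was 8.27%. Windows higher at E14.5 numbered 784 with a pseudocount of 0.5, 824 with median-ratio scaling and 5 with a 3-fold rule, against 50; the cause was not tested. With any region of the gene in place of promoter regions, H3K27ac was at 40.6% of windows positive at P9 alone, 67.9% at E14.5 alone, 66.6% at both and 29.5% at neither, and H3K27me3 at 24.6%, 23.9%, 41.0% and 14.4% of them. With any gene the file names for the window, chosen after seeing the data, H3K27ac was at 46.7%, 77.7%, 73.7% and 35.1%, and H3K27me3 at 24.6%, 23.0%, 42.9% and 13.9%, in the same order of classes; the difference between P9 and thinned E14.5 at promoters with neither mark was then 3.13 percentage points, against 1.97. Taking marks from 1 Control library alone, with at least 10 counts, gave 2.01 to 2.05 there and 1.42 to 1.67 with both marks. Of 300 values of the lists under the alternatives, 277 moved by less than the counting interval, 23 moved by more and 0 that the interval had set apart changed sign. These values include the sum over a gene's windows, which could not move. They also include a minimum count of 2, at which the lists set apart with P9 lower could not change sign. Depth limits every single promoter at P9, where a count of 0 was taken to allow up to 3, with an exact Poisson upper limit of 3.69.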

Other observations

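Further lists gave counts at both stages, against 8.86% of all windows positive at P9 and 37.7% at E14.5. Genes disallowed in mature beta cells, which other tissues use and beta cells keep off, were positive in 6 of 24 at P9 (25%, 9.77 to 46.7) and in 16 of 24 (66.7%) at E14.5, with 13.8% expected after thinning, and all 6 were positive at both stages. Cxcl12, a chemokine gene, had 1 at P9 and 5 at E14.5, Pdgfra, a growth factor receptor gene, had 1 and 4 at those stages, and Ldha, lactate dehydrogenase A, had 1 and 2. Gut endocrine genes were positive in 3 of 16 at P9 and 6 of 16 at E14.5. The 3 were Fev, Lmx1a and Cck, and all were positive at both stages.

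Cilium genes were positive in 9 of 86 at P9 (10.5%, 4.90 to 18.9) and in 28 of 86 (32.6%) at E14.5, against 5.59% after thinning, with Rfx4, a regulator of ciliary genes, at 2 at P9 and 1 at E14.5. Solute carriers were positive in 32 of 337 at P9 and 160 of 337 at E14.5, and Rab, Arf and trafficking genes in 14 of 150 at P9 and 90 of 150 at E14.5. Genes of the Trim, Fbx and Klhl families were positive in 19 of 165 at P9 and 63 of 165 at E14.5, where Klhl3, an adaptor of ubiquitin ligases in the kidney, had 3 at P9 and 2 at E14.5. Cadherin and protocadherin genes were positive in 7 of 65 at P9 and 28 of 65 at E14.5, and matrix and integrin genes in 8 of 73 at P9 and 35 of 73 at E14.5. Translation initiation factors were positive in 6 of 62 at P9 and 26 of 62 at E14.5, and tRNA synthetases in 1 of 14 at P9 and 8 of 14 at E14.5. Genes of protein folding in the endoplasmic reticulum were positive in 3 of 33 at P9 and 17 of 33 at E14.5. For every list from cilium genes onwards the P9 interval included the 8.86% of all windows. The P9 share was 9.50% for solute carriers, 9.33% for Rab, Arf and trafficking genes, 9.68% for translation initiation factors and 9.09% for protein folding genes.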
